A study of Caenorhabditis elegans with 4 samples.

Results

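The eggshell and egg activation genes of C. elegans studied here are cbd-1, perm-2, chs-1, cpg-1, cpg-2, egg-1, egg-2, egg-3, egg-4 and egg-5. They were chosen by name, and all 10 were found among the 47115 rows of the count table. RNA of whole adults, depleted of ribosomal RNA, was sequenced by strand in 4 libraries. The tested animals were an eggd-1 null mutant, which lacks a protein that anchors germ granules around germ cell nuclei (2 libraries). The control animals carried pgl-1::RFP, a germ granule protein with a red fluorescent tag (2 libraries). Both groups were synchronized as larvae, fed OP50 bacteria and collected as adults, and each library pooled many animals. The labels give the mutants only as eggd-1 and do not say whether they carried the same tag, so an effect of the tag and of the mutation cannot be told apart from the labels. The titles speak of sequencing replicates, whereas the study calls them biological replicates, so the spread between libraries may be partly technical.

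The oocyte of C. elegans builds its eggshell in layers around fertilization. The vitelline layer forms on the oocyte first, and CBD-1, a protein with many chitin-binding domains, is a main component of it, together with PERM-2 and its partner PERM-4. Chitin made by the synthase CHS-1 forms the middle layer, and the proteoglycans CPG-1 and CPG-2, released from cortical granules during the meiotic divisions, form the inner layer. EGG-1 and EGG-2 are membrane proteins with LDL receptor repeats that the oocyte needs for sperm entry. EGG-3, EGG-4 and EGG-5 resemble tyrosine phosphatases without activity and hold the kinase MBK-2 at the oocyte cortex until the egg is activated.

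The libraries held between 17603513 and 30812591 counts. Counts of the 10 genes ran from 3062 to 97120 in a single library. The deleted gene, listed as mip-1 (eggd-1), had 6 and 3 counts in eggd-1 animals, against 2074 and 3177 in control animals. Counts were scaled between libraries with DESeq2 size factors (normalized counts) and compared with its Wald test, and a gene was called at an adjusted p under 0.05 over all rows. Bulk RNA cannot tell fewer cells of a type from less RNA per cell.

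Of the 10 genes, 5 were called higher in eggd-1 animals, 1 was called lower and 4 passed in neither direction. Those higher were egg-4 and egg-5, at 1.97-fold and 1.93-fold, cpg-1 and egg-1, at 1.53-fold and 1.51-fold, and cbd-1, at 1.29-fold. egg-4 and egg-5 are close copies that share some reads, so their calls are not fully separate measurements. The gene called lower was perm-2, at 0.653-fold, and chs-1, cpg-2, egg-2 and egg-3 were not called. Over all 16773 rows with an adjusted p, 18.6% were called higher and 20.4% lower, 39.1% in either direction. The same shares are the background for the counts of every other gene list below. Both eggd-1 libraries were above both control libraries for 6 of the 10 genes and below them for 2, where 38.5% of all these rows lay above and 38.9% below. The median log2 fold change of the 10 genes was 0.29, beside 0.00 over all rows.

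**Figure D1:**
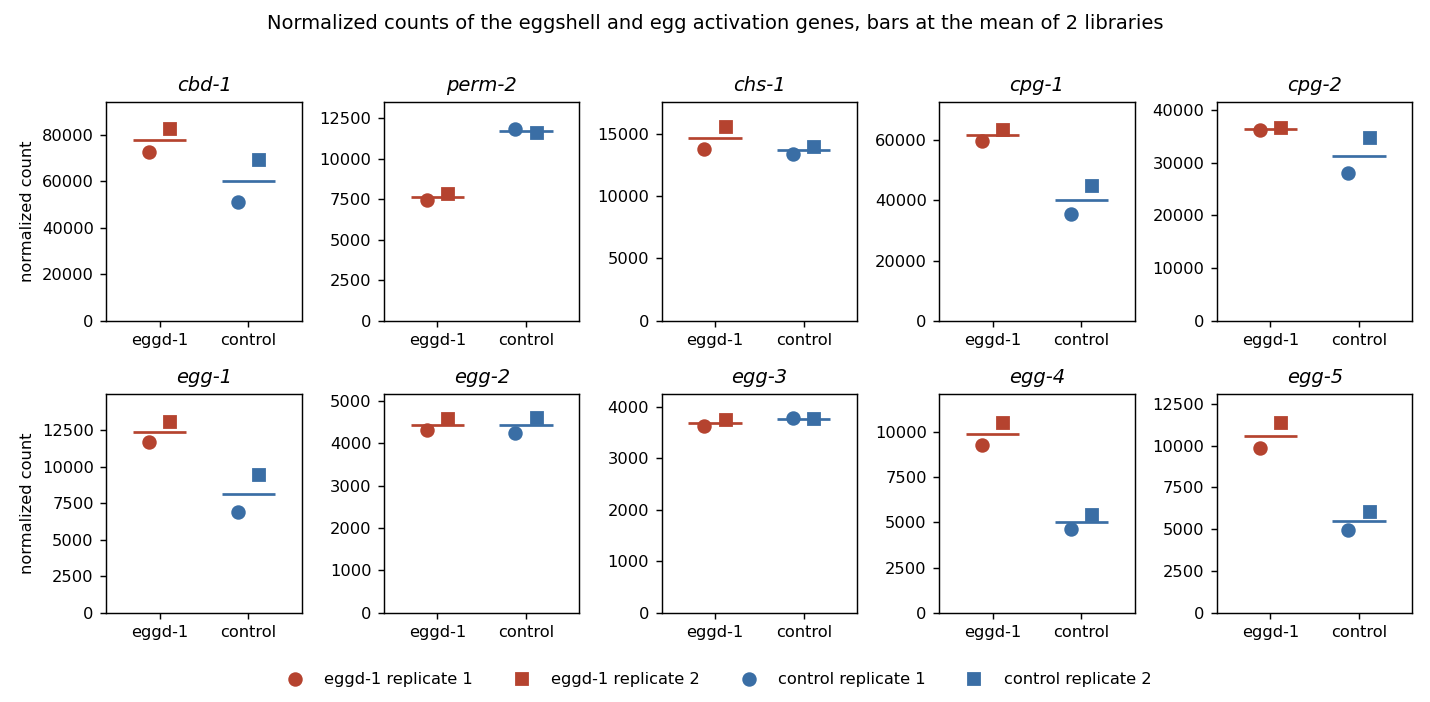
Normalized counts of each gene (y axis, from 0) in the 2 eggd-1 and the 2 control libraries (x axis), 1 point per library, with a bar at the mean of each group. The eggd-1 points lie above the control points for cbd-1, cpg-1, cpg-2, egg-1, egg-4 and egg-5, below them for perm-2 and egg-3, and among them for chs-1 and egg-2.

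The vitelline layer genes differed in opposite directions. cbd-1 (WBGene00010351, WBcel235 chromosome IV, 11372991 to 11377627, plus strand) had 72780 and 82488 normalized counts in eggd-1 animals, against 51311 and 69407 in control animals. The groups did not overlap, but control replicate 2 lay close to eggd-1 replicate 1. The mean was 77634 ± 6864 in eggd-1 animals and 60359 ± 12796 in control animals (SD, n = 2 each), a log2 fold change of 0.36 (SE 0.15, DESeq2 adjusted p = 0.0436). This call rested on few libraries: without control replicate 1 the log2 fold change was 0.15 (adjusted p = 0.286), without eggd-1 replicate 1 it was 0.44 (adjusted p = 0.189), and without eggd-1 replicate 2 it was 0.27 (adjusted p = 0.444).

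perm-2 (WBGene00016636, chromosome IV, 1126790 to 1128865, plus strand) had 7468 and 7837 normalized counts in eggd-1 animals, against 11840 and 11590 in control animals. Within each group the libraries lay close together and the groups were well apart. The mean was 7652 ± 261 in eggd-1 animals and 11715 ± 177 in control animals (SD, n = 2 each), a log2 fold change of -0.61 (SE 0.12, DESeq2 adjusted p = 1.72e-06), and it was called lower under all 11 alternatives tried.

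The partner gene perm-4, also needed for the vitelline layer, is the gene next to perm-2 on the side of its start. It lies on the minus strand at 1121494 to 1125107, so the starts of both genes face each other across 1682 bases with 0 other genes of the table between them. perm-4 had 14013 and 15316 normalized counts in eggd-1 animals, against 19395 and 16935 in control animals. It was lower by the same test (log2 fold change -0.31, SE 0.13, adjusted p = 0.0394), a call lost under 9 of the 11 alternatives. The other genes looked at near this pair did not share a direction that passed the test. ost-1, which encodes the secreted matrix protein SPARC and ends at 1110872, was higher (log2 fold change 0.44, adjusted p = 0.00188). C44B12.6, on the minus strand from 1128841, overlaps the end of perm-2. It was lower at few counts and was not called (log2 fold change -1.09, adjusted p = 0.428). ost-1 and C44B12.6 were looked at after the values of perm-2 were known.

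chs-1 (WBGene00000496, chromosome I, 7554855 to 7559916, plus strand) makes the chitin of the middle layer. It had 13800 and 15564 normalized counts in eggd-1 animals, against 13363 and 13986 in control animals. The groups overlapped, and the log2 fold change was 0.10 (95% interval -0.14 to 0.34, DESeq2 adjusted p = 0.542).

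The genes that supply the sugar for chitin did not move together. Of 4 measured, gfat-1 was called higher, gna-1 and gna-2 lower, and the fourth passed in neither direction, with a median log2 fold change of -0.18. GNA-2 makes N-acetylglucosamine phosphate in the oocyte and is needed for a chitin layer. Its gene had 2095 and 2285 normalized counts in eggd-1 animals, against 4078 and 3352 in control animals, and was lower under all 11 alternatives (log2 fold change -0.76, SE 0.14, adjusted p = 1.01e-06). gfat-1, whose product starts the hexosamine pathway, had a log2 fold change of 0.40 (adjusted p = 0.0168), and gna-1, the paralogue of gna-2 with fewer than 100 normalized counts per library, one of -0.89 (adjusted p = 0.0385). The call on gna-1 was lost under 7 alternatives, and that on gfat-1 without control replicate 1 (0.22, adjusted p = 0.104) and without either eggd-1 library (adjusted p = 0.169 and 0.297).

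cpg-1 and cpg-2 encode the chondroitin proteoglycans of the inner layer. cpg-1 (WBGene00000465, chromosome III, 4489359 to 4491392, plus strand) had 59806 and 63472 normalized counts in eggd-1 animals, against 35549 and 44783 in control animals. The groups were apart by more than the spread within either. The mean was 61640 ± 2592 in eggd-1 animals and 40166 ± 6529 in control animals (SD, n = 2 each), a log2 fold change of 0.62 (SE 0.14, DESeq2 adjusted p = 4.66e-05).

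cpg-2 (WBGene00015102, chromosome III, 7102092 to 7103990, minus strand) had 36259 and 36663 normalized counts in eggd-1 animals, against 28133 and 34626 in control animals. Both eggd-1 libraries were above both control libraries, but control replicate 2 was near them, and the log2 fold change of 0.22 (95% interval -0.04 to 0.48) did not pass the test (adjusted p = 0.19). Without control replicate 2 it was 0.36 (adjusted p = 0.00152), and without control replicate 1 it was 0.064 (adjusted p = 0.654).

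The genes that build the chondroitin chains were lower where they passed the test. Of 9 measured, 5 were called lower and 0 higher, with a median log2 fold change of -0.47. Over all rows 20.4% were called lower. Of the genes called, sqv-4, sqv-6, sqv-7 and sqv-8 belong to the table's Oogenic class, where 526 of 1697 rows were called lower. With size factors taken from the Oogenic rows, the median was -0.26. The calls on sqv-4 and sqv-6 were then lost, and those on sqv-3, sqv-7 and sqv-8 were kept. SQV-8, a glucuronosyltransferase of the linker to the core protein, had 797.6 and 797.5 normalized counts for its gene in eggd-1 animals, against 1421 and 1213 in control animals (log2 fold change -0.72, adjusted p = 1.81e-05). sqv-3, for a galactosyltransferase of the same linker, had a log2 fold change of -0.66 (adjusted p = 0.000236), and sqv-7, for a nucleotide sugar transporter of the Golgi, one of -0.54 (adjusted p = 0.000716). The genes of the enzymes that lengthen the chain, named after their values were seen, were not among those called: sqv-5, the chondroitin synthase, had a log2 fold change of -0.05 (adjusted p = 0.769) and mig-22, its partner, one of 0.29 (adjusted p = 0.117).

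Other core proteins of chondroitin chains differed among themselves. Of 5 measured, cpg-3, cpg-8 and cpg-9 were called lower and cpg-7 higher, with a median log2 fold change of -0.37. cpg-8 had 1090 and 962.6 normalized counts in eggd-1 animals, against 1879 and 1917 in control animals (log2 fold change -0.89, adjusted p = 6.89e-09). cpg-9 and cpg-3 had log2 fold changes of -0.68 (adjusted p = 0.000112) and -0.37 (adjusted p = 0.00738). cpg-7 had 449.6 and 298.5 normalized counts in eggd-1 animals, against 77.94 and 75.75 in control animals (log2 fold change 2.29, SE 0.26, adjusted p = 2.65e-16).

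The egg-1 and egg-2 genes encode paralogous receptors of the oocyte surface. egg-1 (WBGene00015083, chromosome III, 5728180 to 5730159, plus strand) had 11661 and 13043 normalized counts in eggd-1 animals, against 6885 and 9415 in control animals. The groups did not overlap. The mean was 12352 ± 977 in eggd-1 animals and 8150 ± 1789 in control animals (SD, n = 2 each), a log2 fold change of 0.60 (SE 0.15, DESeq2 adjusted p = 0.000567). Without control replicate 1 it was 0.38, still called, and without eggd-1 replicate 2 it was 0.52 and no longer called (adjusted p = 0.108).

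egg-2 (WBGene00019811, chromosome III, 7058527 to 7060583, minus strand) had 4315 and 4566 normalized counts in eggd-1 animals, against 4249 and 4586 in control animals. The groups overlapped, and the log2 fold change was 0.01 (95% interval -0.24 to 0.25, adjusted p = 0.971).

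The partners on the sperm side were scarce in these adults but higher in eggd-1 animals where they passed the test. Of 9 measured genes, 8 had an adjusted p, 4 were called higher and 0 lower, with a median log2 fold change of 1.43. spe-11, whose product the sperm carries into the egg, had 120.4 and 95.41 normalized counts in eggd-1 animals, against 14.17 and 21.44 in control animals (log2 fold change 2.58, adjusted p = 2.96e-08). spe-9, for a sperm surface protein with EGF repeats, and spe-49 had log2 fold changes of 2.16 (adjusted p = 0.0119) and 2.24 (adjusted p = 0.00434).

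egg-3, egg-4 and egg-5 encode the complex that holds MBK-2. egg-3 (WBGene00009701, chromosome II, 10882408 to 10884441, minus strand) had 3640 and 3745 normalized counts in eggd-1 animals, against 3787 and 3759 in control animals. Both eggd-1 values were lower, by less than the spread the test allows for: the log2 fold change was -0.03 (95% interval -0.27 to 0.21, adjusted p = 0.872).

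egg-4 (WBGene00020652, chromosome I, 3932210 to 3934813, plus strand) had 9280 and 10506 normalized counts in eggd-1 animals, against 4644 and 5421 in control animals. The mean was 9893 ± 867 in eggd-1 animals and 5033 ± 550 in control animals (SD, n = 2 each), a log2 fold change of 0.97 (SE 0.13, DESeq2 adjusted p = 1.05e-11). The groups were far apart.

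egg-5 (WBGene00020035, chromosome I, 4168984 to 4171589, minus strand) had 9846 and 11351 normalized counts in eggd-1 animals, against 4972 and 6021 in control animals. The mean was 10599 ± 1064 in eggd-1 animals and 5496 ± 742 in control animals (SD, n = 2 each), a log2 fold change of 0.95 (SE 0.14, DESeq2 adjusted p = 3.11e-10). egg-4 and egg-5 are close copies, and their counts were fractional in 3 libraries each, so some reads were divided among loci and the single values are uncertain to that extent. Their sum, which does not depend on how reads were divided between them, was 19126 and 21857 normalized counts in eggd-1 animals, against 9616 and 11442 in control animals, a 1.95-fold difference of the means.

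The kinase that this complex holds did not differ detectably. mbk-2, named here although it did not pass the test, had 10087 and 10595 normalized counts in eggd-1 animals, against 9270 and 10384 in control animals (log2 fold change 0.07, 95% interval -0.17 to 0.31, adjusted p = 0.678). Of 14 genes of egg activation and the meiotic cell cycle, mbk-2 among them, 3 were called higher and 2 lower, with a median log2 fold change of 0.05. These counts are near the shares over all rows, 18.6% higher and 20.4% lower, 39.1% in either direction. The securin gene ify-1 had 2878 and 2879 normalized counts in eggd-1 animals, against 4354 and 4489 in control animals (log2 fold change -0.62, adjusted p = 4.04e-06), and cdk-1, the mitotic kinase, had a log2 fold change of -0.43 (adjusted p = 0.00168). The genes called higher were sep-1, the separase that securin restrains (log2 fold change 0.33, adjusted p = 0.0395), and mat-2 and emb-30, which encode subunits of the anaphase-promoting complex (0.34 with adjusted p = 0.0233, and 0.31 with adjusted p = 0.0451). Calls on sep-1, mat-2 and emb-30 were lost under 4 or more alternatives each.

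The genes listed for the lipid supply of the permeability barrier and the other eggshell genes moved in different directions. pod-2, for the acetyl-CoA carboxylase that starts fatty acid synthesis, had 39365 and 42184 normalized counts in eggd-1 animals, against 15464 and 18731 in control animals (log2 fold change 1.25, SE 0.13, adjusted p = 1.39e-19). pod-2 was called under all 11 alternatives. It is outside the Oogenic class but in the table's classes CSR1, MUT16, PRG1 and WAGO4, which hold targets of small RNA pathways. RNA of whole adults does not show in which tissue its level differed. emb-8, the cytochrome P450 reductase, was also called higher (0.38, adjusted p = 0.016), and 3 other genes of this list of 5 passed in neither direction, with a list median of 0.14. Of 5 other eggshell and permeability genes, perm-3 (-0.42, adjusted p = 0.0158) and perm-4 were called lower and 0 higher, with a median of -0.27. The call on perm-3 was lost under 5 alternatives, among them Oogenic size factors (-0.21, adjusted p = 0.258).

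**Figure D2:**
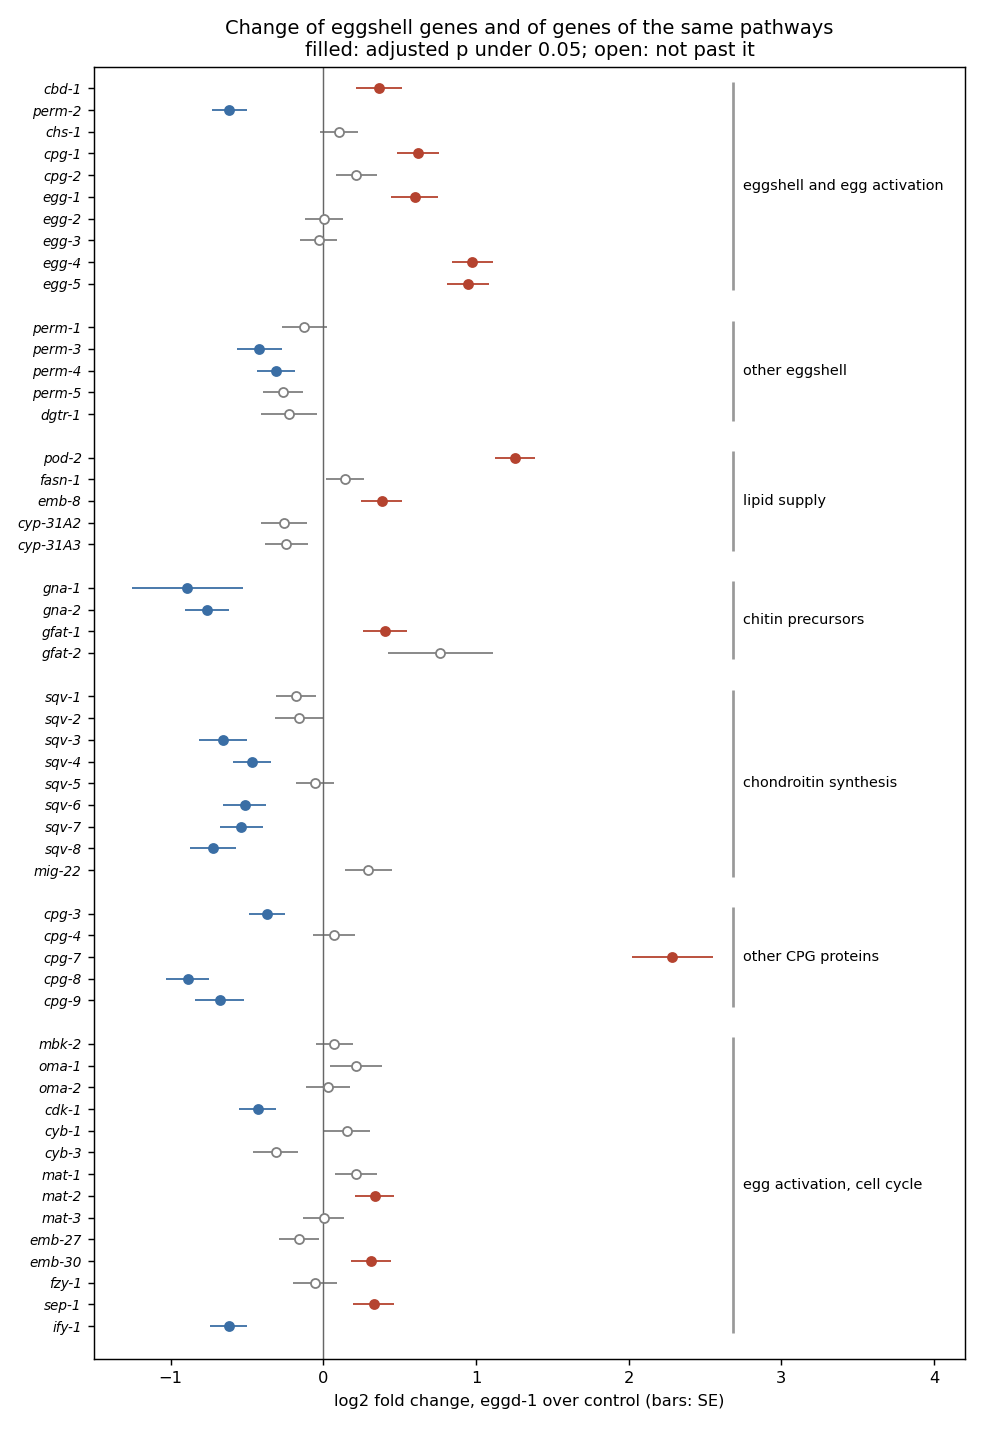
Log2 fold change of eggd-1 over control animals (x axis, bars SE) for the 10 eggshell and egg activation genes and for the other genes of their pathways (y axis), leaving out the sperm side. Filled points passed an adjusted p of 0.05, red higher and blue lower, and open points did not. The sqv genes called lie left of 0, while pod-2 at 1.25 and cpg-7 at 2.29 lie farthest right.

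Within a library, the ratio of 2 genes does not depend on how libraries are scaled. Per kilobase of exon, egg-1 stood at 2.66 and 2.81 times egg-2 in eggd-1 animals, against 1.59 and 2.02 times in control animals. cpg-1 stood at 1.50 and 1.58 times cpg-2 in eggd-1 animals, against 1.15 and 1.18 times in control animals. These paralogue pairs were thus further apart in both eggd-1 libraries than in either control library, by 0.61 and 0.40 on the log2 scale. egg-4 stood at 0.943 and 0.926 times egg-5 in eggd-1 animals, against 0.935 and 0.901 times in control animals, and these ranges overlapped. A read that fits both of these close copies adds the same fraction to each, which draws this ratio towards 1 to an unknown extent. An exact two-sided permutation test of 2 against 2 libraries cannot go below p = 0.333, the value it gave for the egg-1 and the cpg-1 ratio, and it gave p = 0.667 for egg-4 to egg-5.

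The ratios of the vitelline layer genes were looked at after their values were seen. cbd-1 stood at 1.70 and 1.83 times perm-2 per kilobase in eggd-1 animals, against 0.756 and 1.04 times in control animals. perm-4 stood at 1.25 and 1.30 times perm-2 in eggd-1 animals, against 1.09 and 0.972 times in control animals. The eggd-1 minus control difference was 0.99 on the log2 scale for cbd-1 to perm-2 and 0.31 for perm-4 to perm-2, with p = 0.333 for each by the same exact permutation test.

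**Figure D3:**
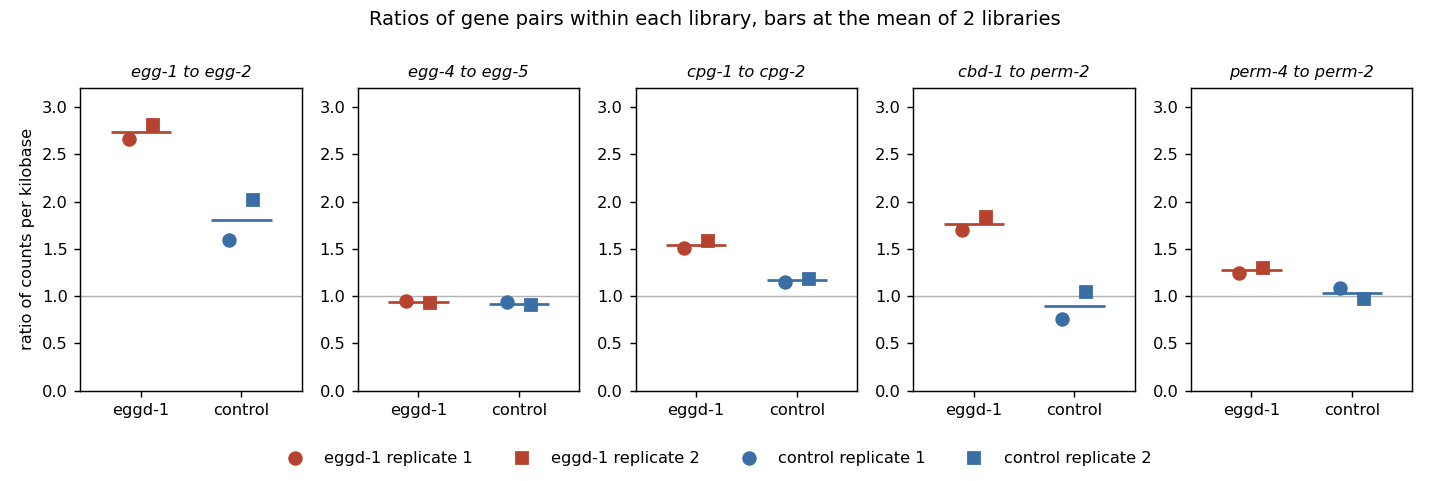
Ratio of counts per kilobase of exon for 5 gene pairs (y axis, from 0) in the eggd-1 and control libraries (x axis), 1 point per library, with a bar at the group mean. The eggd-1 points lie above the control points for every pair shown except egg-4 to egg-5, where they overlap.

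Levels of different genes were compared as counts per kilobase of exon, scaled to the same total count in every library (1e+06). The inner layer and vitelline layer genes were the most abundant in both groups, and egg-3 had the lowest mean. cpg-1 was highest in both groups, at 1546 ± 20.2 in eggd-1 animals and 998 ± 111 in control animals, followed by cpg-2, at 1003 ± 21.3 in eggd-1 animals and 855 ± 81.3 in control animals (SD, n = 2 each). cbd-1 stood at 871 ± 51.8 in eggd-1 animals and 670 ± 108 in control animals. perm-2 stood at 493 ± 2.50 in eggd-1 animals and 751 ± 50.0 in control animals. cbd-1 was above perm-2 in eggd-1 animals, whereas in control animals their ranges overlapped.

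Below these, egg-1 stood at 326 ± 16.3 in eggd-1 animals and 213 ± 35.9 in control animals, chs-1 at 162 ± 9.07 in eggd-1 animals and 150.0 ± 2.91 in control animals, and egg-2 at 119 ± 1.31 in eggd-1 animals and 118 ± 0.271 in control animals. egg-5 stood at 212 ± 15.2 in eggd-1 animals and 109 ± 9.13 in control animals, egg-4 at 198 ± 11.7 in eggd-1 animals and 100.1 ± 5.79 in control animals, and egg-3 at 97.6 ± 0.864 in eggd-1 animals and 99.1 ± 5.63 in control animals. In eggd-1 animals egg-4 and egg-5 overlapped each other and lay above chs-1, egg-2 and egg-3. In control animals egg-5 overlapped egg-4, egg-4 overlapped egg-3, and all of them lay below egg-2 and chs-1.

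The table's own gene classes place most of these genes with the oocyte. The Oogenic class held 8 of the 10, all but chs-1 and perm-2, beside 10.8% of the 15314 protein-coding genes with an adjusted p. The classes of targets of the Argonautes CSR-1 and WAGO-4, which bind small RNAs antisense to germline transcripts, each held 9 of the 10, all but perm-2, beside 3978 and 4645 of those protein-coding genes. By chromosome, 3 of the genes lie on I, 1 on II, 4 on III and 2 on IV, with 0 on V and 0 on X.

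With the default scaling, Oogenic genes as a class had more calls lower than higher. Of 1697 Oogenic rows with an adjusted p, 158 were called higher and 526 lower, with a median log2 fold change of -0.22, while of the 8 Oogenic genes among the 10, 5 were called higher. Among these 5, egg-4 and egg-5 share some reads. A larger log2 fold change than that of egg-4 was found in 1.24% of the Oogenic rows, than that of egg-5 in 1.42%, of cpg-1 in 4.36% and of egg-1 in 4.78%. For cbd-1 this share was 11.1%, for cpg-2 18.6%, for egg-2 33.0% and for egg-3 35.7%. perm-2 and chs-1 are outside the class, and 77.9% and 25.4% of the Oogenic rows had a larger value than theirs.

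**Figure D4:**
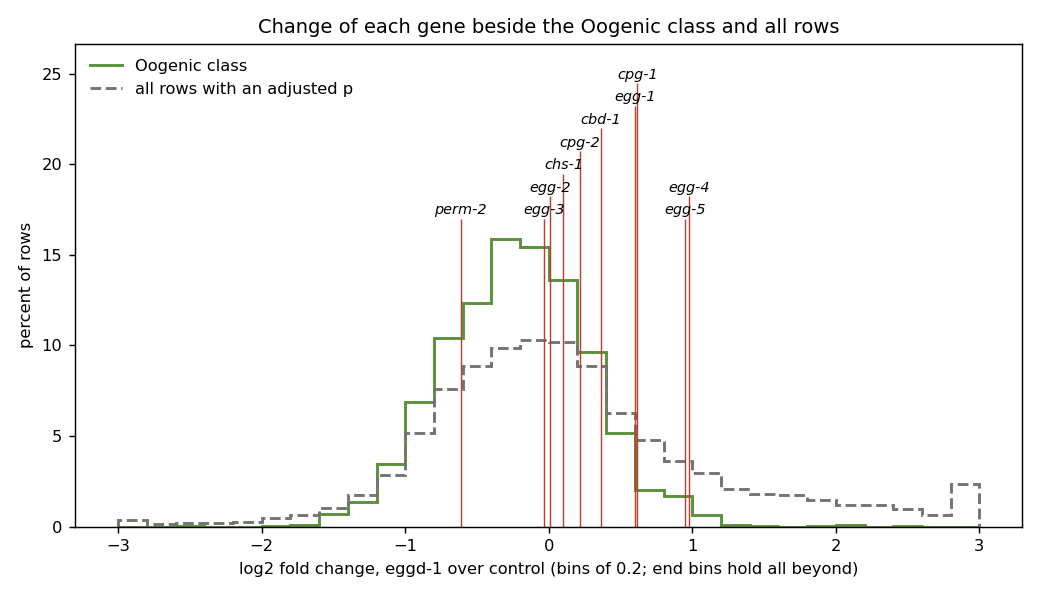
Percent of rows (y axis) by log2 fold change of eggd-1 over control animals (x axis, bins of 0.2) for the Oogenic class (solid) and all rows with an adjusted p (dashed), with a vertical line at each of the 10 genes. egg-4 and egg-5 stand in the right tail of the Oogenic class, whose median is -0.22, and perm-2 stands to the left of that median.

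The scaling between libraries sets the level against which these changes are read. With size factors taken from the Oogenic rows, the median over all rows was 0.22, so calls over all rows were 4659 higher and 2138 lower (68.5% higher) in place of 3127 higher and 3426 lower (47.7% higher). On that scale 7 of the 10 genes were called higher, with chs-1 at 0.31 (adjusted p = 0.0224) and cpg-2 at 0.43 (adjusted p = 0.00266) added, 1 was called lower, with perm-2 at -0.41, and egg-3 turned to 0.18 without a call.

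**Figure D5:**
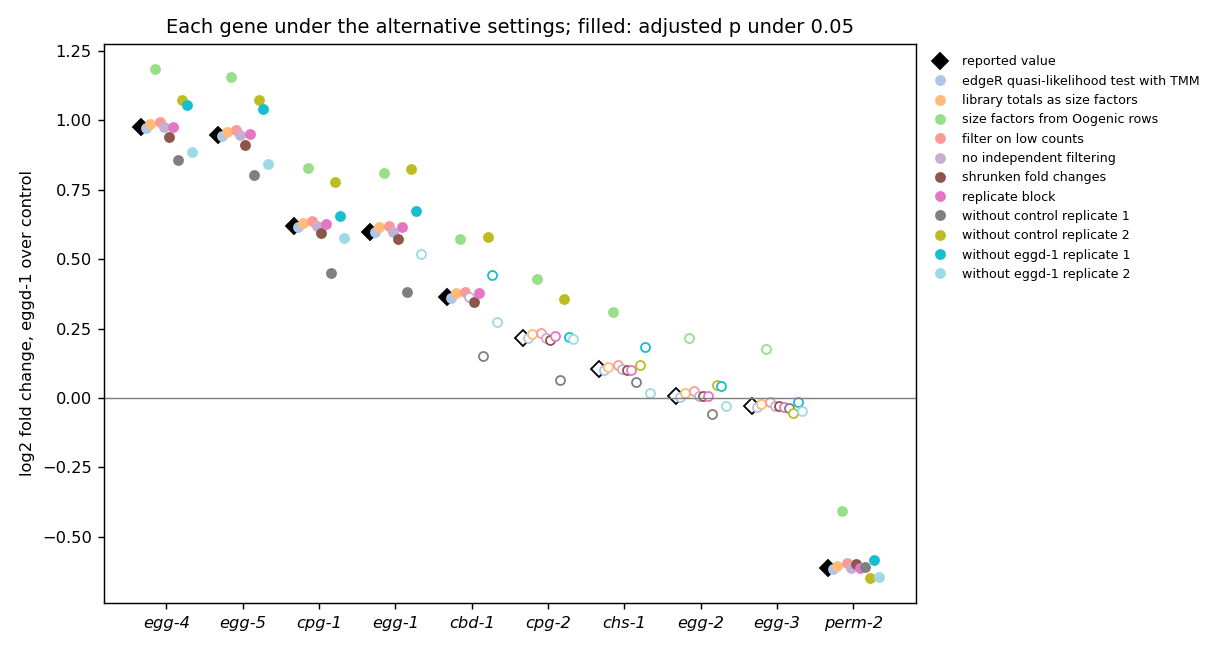
Log2 fold change of eggd-1 over control animals (y axis) of each gene (x axis) as reported (black diamond) and under 11 alternatives (coloured points), filled where the adjusted p was under 0.05. egg-4, egg-5, cpg-1 and perm-2 are filled throughout, cbd-1 is open in 4 alternatives and egg-1 in 1, and egg-2 and egg-3 lie near 0, with points on either side of it.

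Cell type markers differed between the groups beside these genes, and their part in the results was not tested. Oocyte markers summed to 116638 and 124760 normalized counts in eggd-1 animals, against 93649 and 122456 in control animals, with 2 of 9 called higher and 0 lower. Over all rows 18.6% were called higher and 20.4% lower. Sperm markers, spe-9 and spe-11 among them, summed to 2446 and 2086 in eggd-1 animals, against 470 and 543 in control animals, with 9 of 9 called higher. Markers of zygotic embryos summed to 323 and 295 in eggd-1 animals, against 673 and 592 in control animals. Of these 11 markers 8 had an adjusted p, 2 were called lower and 0 higher, and med-1 and med-2 were at 0 in at least 1 library. The 2 called, pes-10 and sdz-28, held most of each sum. The other embryo markers had few counts, and tbx-37, tbx-38, end-3 and med-2 overlapped between the groups. Markers of the gonadal sheath and spermatheca summed to 1054 and 1040 in eggd-1 animals, against 666 and 758 in control animals, with 2 of 5 called higher. Both of these, ceh-18 and fkh-6, also belong to the table's Spermatogenic class, while lim-7 and sth-1, in no class, did not pass the test. ipp-5, also in the Spermatogenic class, was lower in both eggd-1 libraries and was not called (log2 fold change -0.23, adjusted p = 0.413). Control replicate 1 was the lowest library for both the oocyte markers and the sum of the 10 genes, which was 228857 and 249234 in eggd-1 animals, against 164734 and 203594 in control animals.

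The genes most like the 10 in pattern were sought by the distance between their 4 centred log2 values and the median profile of the 10, among 9494 genes with a mean of at least 100 normalized counts. The nearest were gbas-1, mut-16 (the scaffold of mutator foci), gars-1 (glycyl-tRNA synthetase), sec-24.1 (a COPII coat subunit) and mask-1, at distances of 0.0177 to 0.0255. Their log2 fold changes of 0.31 to 0.32, which follow from this way of choosing them, did not pass the test (adjusted p = 0.052 to 0.117). Among the 10 genes the nearest to their own median was cbd-1, at 0.106 with 235 other genes nearer, and the farthest was perm-2, at 0.973 with 6970 nearer, so the 10 do not share a single pattern.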

How the data were processed

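Reads had been trimmed by the authors (TrimGalore), mapped with STAR against WormBase release WS279, cleared of orphans, and assigned to genes on the matching strand by featureCounts, where a read with several possible places adds a fraction to each. Transposon rows came from Salmon. What was deposited is thus an expected count without normalization, and 3342 of the 26126 rows with a count hold a fraction. Near-identical genes share reads. The table also has 7 columns that fit none of the samples, left unused here.

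Expected counts were rounded and tested over all rows in R 4.3.3 by the Wald test of DESeq2 1.42.0, with its own size factors, unshrunken fold changes and Benjamini-Hochberg adjustment after independent filtering at 0.05, giving 16773 adjusted p-values. The fit was checked on simulated data. Alternatives were edgeR 4.0.16 (quasi-likelihood, TMM), library totals, size factors from Oogenic rows, a minimum of 10 counts in 2 libraries, no independent filtering, shrunken fold changes, a replicate block and leaving out each library. Levels used exon lengths of the Ensembl release 115 annotation (WBcel235). Profiles used log2(normalized count + 0.5).

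The genes and lists were chosen with earlier results of these data known. Named were all 10 genes, from each pathway list the called genes (at most 3 per direction, by size), the 5 genes nearest in pattern and eggd-1 itself, and others where stated. The names uap-1, cpg-5, cpg-6 and spe-13 matched no row, and trp-3 was read as spe-41.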

Additional observations from a re-analysis of the deposited data

How the results depend on the processing

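Of 110 gene and alternative combinations for the 10 genes, 99 kept their direction and their side of the threshold. egg-4, egg-5, cpg-1 and perm-2 stayed called throughout. cbd-1 was no longer called without independent filtering (adjusted p = 0.0667), nor without control replicate 1, eggd-1 replicate 1 or eggd-1 replicate 2, and egg-1 was no longer called without eggd-1 replicate 2. For egg-2, at 0.01 in all 4 libraries, leaving out 1 library at a time gave log2 fold changes between -0.058 and 0.046, negative when control replicate 1 or eggd-1 replicate 2 was dropped. The sign also turned for egg-3 with Oogenic size factors (0.18). With Oogenic size factors, calls over all rows were 4659 higher and 2138 lower, pathway genes called were 18 higher and 7 lower (in place of 11 and 14), and the median log2 fold change of the 10 genes was 0.50. Calls on perm-3, perm-4, gna-1, sqv-4, sqv-6, cpg-3 and cdk-1 were then lost. edgeR called 5 marker genes lower in place of 2. Leaving out each library in turn gave 1174 to 2502 calls higher and 1497 to 2893 lower over all rows, 3 to 6 higher and 1 to 1 lower among the 10 genes, 3 to 14 higher and 6 to 13 lower among pathway genes, 7 to 11 higher and 1 to 3 lower among markers, and a median of the 10 genes between 0.11, when control replicate 1 was left out, and 0.47, when control replicate 2 was. The log2 ratio differences ran from 0.44 to 0.78 for egg-1 to egg-2, 0.37 to 0.44 for cpg-1 to cpg-2 and 0.00014 to 0.053 for egg-4 to egg-5, a calculation added after seeing the data. With 1 library left in a group, it is assumed to vary like the other group. The cause of these shifts was not tested.

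Same-numbered libraries did not deviate together (correlation -0.073 over 9504 genes), so the numbers were not read as pairs. With a replicate block, calls were 2530 higher and 2788 lower over all rows, 5 higher and 1 lower among the 10 genes, 9 higher and 11 lower among pathway genes and 11 higher and 2 lower among markers, with a median of 0.30 for the 10 genes, and calls on perm-3 (adjusted p = 0.0557), perm-4, gna-1, mat-2, sep-1 and emb-30 were lost. Of the other named genes, 58 combinations lost a call, 18 gained it and 232 were unchanged in direction and side of the threshold. Leaving out eggd-1 replicate 1 or eggd-1 replicate 2 each ended the calls on perm-3, perm-4, gna-1, gfat-1, emb-8, sqv-7, cpg-3, cdk-1, mat-2, sep-1, emb-30, spe-9 and spe-49 (spe-9 had no adjusted p without eggd-1 replicate 1), and leaving out eggd-1 replicate 2 also that on sqv-3. Leaving out control replicate 1 ended those on perm-4, gna-1, gfat-1, emb-8, mat-2, sep-1, emb-30 and spe-9, and leaving out control replicate 2 those on perm-3, gna-1, spe-9 and spe-49. With 2 libraries per group, leaving out 1 was enough to end these calls. Depth was not varied.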
